A study of Mus musculus with 2 samples.

Results

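The matrix metalloproteinases (MMPs), their tissue inhibitors (TIMPs) and the cathepsins were followed through the leukocytes of early melanomas that either contained or lacked NK cells. Members were all genes of the deposited matrices whose symbol is Mmp or Timp followed by a number, or Cts followed by a letter, which gave 44 of 31053 genes: 22 Mmp genes, 4 Timp genes and 18 cathepsins. CD45+ cells had been sorted on day 4 from tumors grown under the skin of C57BL/6 mice, which were 8 weeks old, and profiled by droplet single-cell RNA-seq that counts each transcript once at its 3′ end as a unique molecular identifier (UMI), so that levels of different genes are compared without scaling by length. The tumors came from a Braf-driven mouse melanoma line made deficient for Ptgs1 and Ptgs2, which encode the prostaglandin synthases COX-1 and COX-2; both groups carried these Ptgs-/- tumors, although the genotype label of both samples says wildtype. Mice of 1 group were left untreated (control), and mice of the other received 200 µg of anti-NK1.1 and 30 µg of anti-asialo GM1 antibody on days 0 and 2 (NK cell-depleted). Tumors of a group were pooled into 1 library, and parental melanoma cells had been added to both pools. With 1 library per group no difference could be tested between animals: every interval below is a 95% interval that covers counting error only, and a difference is described as past the threshold when the levels differed by at least 1.5-fold.

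MMPs are zinc-dependent enzymes that cut collagens, elastin and other proteins of the extracellular matrix, and most are secreted as inactive precursors. TIMPs bind the active site of MMPs and block it. Cathepsins are mostly proteases of the lysosome, where they degrade ingested proteins, trim the invariant chain of MHC class II and activate other enzymes; some also leave the cell and act on the matrix. In tumors, macrophages are a main source of both families, and neutrophils store MMPs in their granules.

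In the mouse genome 9 of the 22 Mmp genes lie side by side on chromosome 9, over 427.1 kb from base 7272514 to base 7699585 of GRCm38.p6, in the order Mmp13, Mmp12, Mmp1b, Mmp3, Mmp10, Mmp8, Mmp27, Mmp20 and Mmp7. The RefSeq table of promoters (250 bases before a gene's start and 50 after it) held 35 of the 44 members. TGANTCA, the letters bound by AP-1, stood in the 250 bases before the start, on either strand, in 6.75% of 32851 promoters, in 7 of the 9 Mmp genes of this group (not Mmp8 and Mmp27) and in 0 of the other 26 members that were matched. TCACGTGA, the letters of the lysosomal CLEAR element, stood in 0.785% of promoters and in those of Ctsd and Ctsa. The shorter E-box CACGTG, which lies inside TCACGTGA, stood in 6.02% of promoters and in 5 members. The interferon response element stood in 2.98% of promoters and in Ctss and Mmp13. A member was counted when the promoter of any of its starts matched, while the percentages are of single promoters, so the measures differ. A match of letters describes the sequence and does not show that a factor binds there.

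The 120 bases before the start are shown 5′ to 3′ on the strand of the gene, with the matched letters in capitals, for 4 members of the chromosome 9 group with an AP-1 match (Mmp12 and Mmp13, its most abundant members, and Mmp10 and Mmp3, which had few UMIs) and for the cathepsins with a CLEAR match. The Mmp12 stretch is chr9:7347254-7347373 (plus strand), before the second of 2 annotated starts and inside the span of the gene; the promoter of the other start held no AP-1 match. The others are chr9:7272394-7272513 (plus) for Mmp13, chr9:7445702-7445821 (plus) for Mmp3, chr9:7502222-7502341 (plus) for Mmp10, chr7:142387828-142387947 (minus) for Ctsd and chr2:164833653-164833772 (plus) for Ctsa.
Mmp12: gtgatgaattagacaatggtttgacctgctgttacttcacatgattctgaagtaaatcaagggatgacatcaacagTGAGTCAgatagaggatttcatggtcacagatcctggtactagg
Mmp13: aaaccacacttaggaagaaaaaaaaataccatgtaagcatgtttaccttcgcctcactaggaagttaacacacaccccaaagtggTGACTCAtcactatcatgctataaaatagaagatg
Mmp3: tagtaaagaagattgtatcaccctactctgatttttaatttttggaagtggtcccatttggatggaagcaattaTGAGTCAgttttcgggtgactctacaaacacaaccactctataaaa
Mmp10: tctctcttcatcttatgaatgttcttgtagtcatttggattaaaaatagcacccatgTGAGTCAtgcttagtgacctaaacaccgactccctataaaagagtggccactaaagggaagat
Ctsd: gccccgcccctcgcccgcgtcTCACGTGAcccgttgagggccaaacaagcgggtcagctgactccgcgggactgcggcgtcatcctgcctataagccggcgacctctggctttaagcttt
Ctsa: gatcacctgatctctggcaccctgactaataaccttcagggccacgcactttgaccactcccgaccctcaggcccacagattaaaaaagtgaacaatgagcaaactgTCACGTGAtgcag
The match began 44 bases before the start in Mmp12, 35 in Mmp13, 46 in Mmp3, 63 in Mmp10, 99 in Ctsd and 13 in Ctsa.

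After filtering on UMIs, genes and mitochondrial share, 5292 control cells (24810009 UMIs, median 4170 per cell) and 4506 NK cell-depleted cells (23245982 UMIs, median 4893 per cell) remained, and 5 of their barcodes occurred in both libraries. NK-like cells, named like all classes from marker genes that included no member, numbered 548 without depletion and 8 after it. Monocyte/macrophage-like cells made up 67.5% and 71.3% of cells, with all 16 of their markers detected in both libraries. Markers of NK cells summed to 63.8 CPM (the UMIs of a gene or list, scaled to the total of the same cells) in the control macrophages and to 1.05 CPM in the depleted ones, and markers of fibroblasts, a known source of Mmp2, Mmp3 and Timp3 in tissue, to 7.03 and 5.04 CPM. Ptprc, which encodes the sorted CD45, was detected with 19612 and 19758 UMIs in these cells and with 6 and 6 in the melanoma-like cells. The 3′ tags do not read the edited part of Ptgs1 and Ptgs2, so their counts check nothing about the tumor genotype.

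The members held 478226 UMIs, or 9919 CPM in control and 9986 CPM in NK cell-depleted cells. Cathepsins gave 88.2% of these UMIs, Mmp genes 9.85% and Timp genes 1.99%. Of the 44 members, 19 had at least 100 UMIs over both libraries (6 Mmp, 2 Timp and 11 cathepsin genes), 16 had 1 to 99, and 9 had none: Mmp1b, which overlaps the end of Mmp12 on the opposite strand, Mmp20, Mmp21, Mmp24, Timp4 and the cathepsins Ctsj, Ctsm, Ctsq and Ctsr of the placental group. A count of 0 leaves room for up to 3 UMIs per library at this depth.

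Among the filtered cells, most members were macrophage transcripts. For the described members the median share of a gene's UMIs that lay in monocyte/macrophage-like cells was 94.1%, both libraries together. The upper limits on UMIs and genes had removed most melanoma-like cells, and without these limits the median was 88.1%. The share fell most for Timp1 (71.2% to 15.2%), Timp2 (93.8% to 48.4%) and Mmp14 (96.0% to 74.55%). Mmp12, macrophage elastase, reached 719 CPM (interval 708 to 731) in control and 789 CPM (776 to 802) in NK cell-depleted macrophages, which held 98.0% and 99.2% of its UMIs. A Mmp12 UMI was found in 31.9% and 22.3% of macrophages, against 2.09% and 2.34% of T-like cells, a class not known to express it; with every cell thinned to 2000 UMIs the shares were 24.6% and 17.4% of macrophages against 2.60% and 0.73% of T-like cells. Median depths before thinning were 5104 and 5490 UMIs in macrophages and 2074 and 2318 in T-like cells. Mmp13, a collagenase, stood at 108 and 115 CPM in macrophages, Mmp14, the membrane-anchored MMP that activates the precursor of Mmp2, at 177 and 114 CPM, and Mmp19 at 93.7 and 79.9 CPM. Timp2, an inhibitor that also takes part in Mmp2 activation with Mmp14, stood at 197 and 234 CPM.

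The cysteine protease Ctsb was the most abundant member, at 2759 CPM in control and 3147 CPM in NK cell-depleted macrophages. Ctss, the main protease of invariant chain in antigen-presenting cells, followed at 2354 and 2104 CPM. Ctsd, an aspartic protease, gave 1322 and 1101 CPM, Ctsc, the activator of granule serine proteases, 1141 and 1281 CPM, Ctsl 905 and 719 CPM and Ctsz 823 and 785 CPM. Among these 6, the counting intervals of neighbours in the order of levels did not overlap within either library. Ctsk, the collagen-degrading cathepsin of osteoclasts, was low at 13.7 and 7.67 CPM.

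Some members belonged to other cells. Mmp9, a gelatinase of neutrophil granules, stood at 1303 CPM (1203 to 1408) in control and 1458 CPM (1367 to 1554) in NK cell-depleted neutrophil-like cells, which held 85.7% and 90.2% of its UMIs, and at 4.29 and 3.89 CPM in macrophages. Mmp8, the neutrophil collagenase, stood at 132 and 252.5 CPM in neutrophil-like cells, but 90.7% and 74.1% of its UMIs lay in macrophages, which were many more cells. Ctsw, a cathepsin of cytotoxic lymphocytes, stood at 413 CPM in control NK-like cells, where 59.5% of cells held a UMI, and this class held 86.0% of the control UMIs of Ctsw. The gene had 658 UMIs in the control library and 27 in the NK cell-depleted one. NK-like cells numbered 548 in control and only 8 after depletion. With so few left, the level of Ctsw per NK-like cell was not compared. NK-like cells also held Ctsd at 712 CPM in control, above T-like cells at 242 CPM.

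Dendritic cells shared part of the macrophage set. Type 2 conventional DC-like cells held Ctss at 1131 and 1162 CPM, Ctsz at 609.5 and 594 CPM and Ctsh at 541 and 575 CPM, while Ctsl stood at 21.4 and 31.9 CPM and Ctsd at 93.8 and 84.7 CPM. Migratory DC-like cells held Ctss at 971 and 900 CPM and Ctsl at 8.37 and 28.8 CPM. Thus Ctsl and Ctsd, which were among the 7 highest members of macrophages, were low in the DC-like classes, and Ctss and Ctsz were high in both. Melanoma-like cells held Timp2 at 408 and 733 CPM and Timp1 at 129 and 173.5 CPM, against 11.9 and 6.88 CPM of Timp1 in macrophages. These 52 and 70 cells gave 6.51% and 23.5% of the Timp1 UMIs of the filtered cells. The upper limits on UMIs and genes had removed most melanoma-like cells. Without these limits, 121 and 265 melanoma-like cells held 739 and 1360 Timp1 UMIs. The macrophage share of Timp1, both libraries together, then went from 71.2% to 15.2%.

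**Figure D1:**
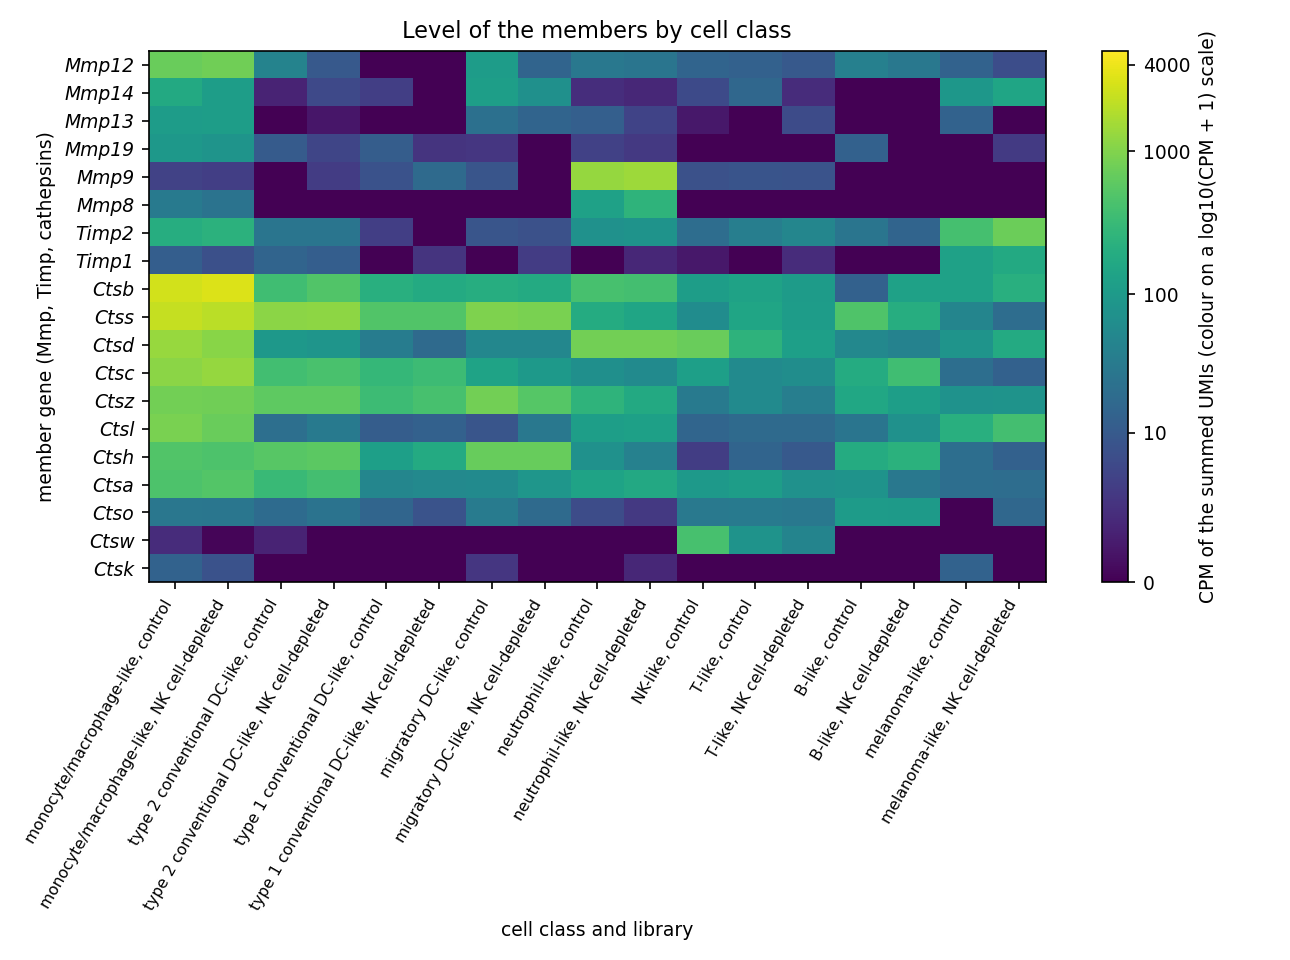
The 19 described members (rows, grouped as Mmp, Timp and cathepsin genes) in each named cell class and library (columns), with colour showing CPM of the summed UMIs on a log10(CPM + 1) scale. Mmp9 is brightest in neutrophil-like cells, Ctsw in NK-like cells and Timp1 in melanoma-like cells, while most other rows are brightest in monocyte/macrophage-like cells; the 8 NK-like cells of the NK cell-depleted library are left out.

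Macrophages were split into 9 clusters without use of the members, called here by number and leading genes. Clusters 2 (Gpnmb, Egln3, Spp1), 4 (Pf4, Ms4a7, Stab1) and 7 (Retnla, Lyz1, Bnip3) had the highest levels of Ctsl. Ctsb stood at 4028 and 4606 CPM in cluster 2, at 4524 and 5069 CPM in cluster 4 and at 3487 and 4553 CPM in cluster 7 in control and NK cell-depleted libraries, and also at 3474 and 3876 CPM in cluster 1 and 2669 and 3311 CPM in cluster 8. Ctsl separated the clusters most clearly, with 2149 and 1798 CPM in cluster 2, 1624 and 1758 CPM in cluster 4 and 1734 and 1948 CPM in cluster 7, and at most 554 CPM in the other 6. Ctsd ranged from 215 CPM in cluster 3 (Ace, Chil3, Adgre4) to 2145 CPM in cluster 4. Ctss varied little, from 1471 to 3127 CPM over all clusters and libraries, and Ctsz from 570 to 1008 CPM. Ctsc had its lowest levels in cluster 2 (707 and 614.5 CPM) and stood at 1643 and 1604 CPM in cluster 1 (Ccl8, Cbr2, Gas6). Ctsk was highest in cluster 2, at 59.3 and 46.7 CPM, and at or below 25.4 CPM elsewhere.

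The MMPs were not spread alike. Mmp14 peaked in cluster 5 (Hes1, Havcr2, Thbs1) at 333 and 382 CPM and in cluster 4 at 306 and 359 CPM. Mmp19 peaked in cluster 6 (Dcstamp, Slc7a2, Mgl2) at 171 and 234 CPM and in cluster 7 at 178 and 121.5 CPM. Timp2 was highest in cluster 1, at 361 and 328 CPM, although its NK cell-depleted interval overlapped those of clusters 4, 7 and 8. Mmp12 and Mmp13 were near the T-like level in clusters 1 and 3. Mmp12 was high in clusters 2, 4, 6 and 7, and Mmp13 in clusters 2, 4 and 7. Over the 18 points of 9 clusters and 2 libraries, the members with the most alike order of levels were Timp1 and Mmp19 (Spearman's rho = 0.90), Mmp13 and Mmp12 (0.87), Ctsa and Ctsb (0.86) and Ctsb and Ctsl (0.86), and the least alike were Ctsz and Mmp8 (-0.67). These points share libraries, and clusters differ in depth. In single cells thinned to 2000 UMIs, Mmp13 was found in 20.95% of control and 28.7% of NK cell-depleted macrophages with Mmp12, and in 4.88% and 2.78% of those without.

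**Figure D2:**
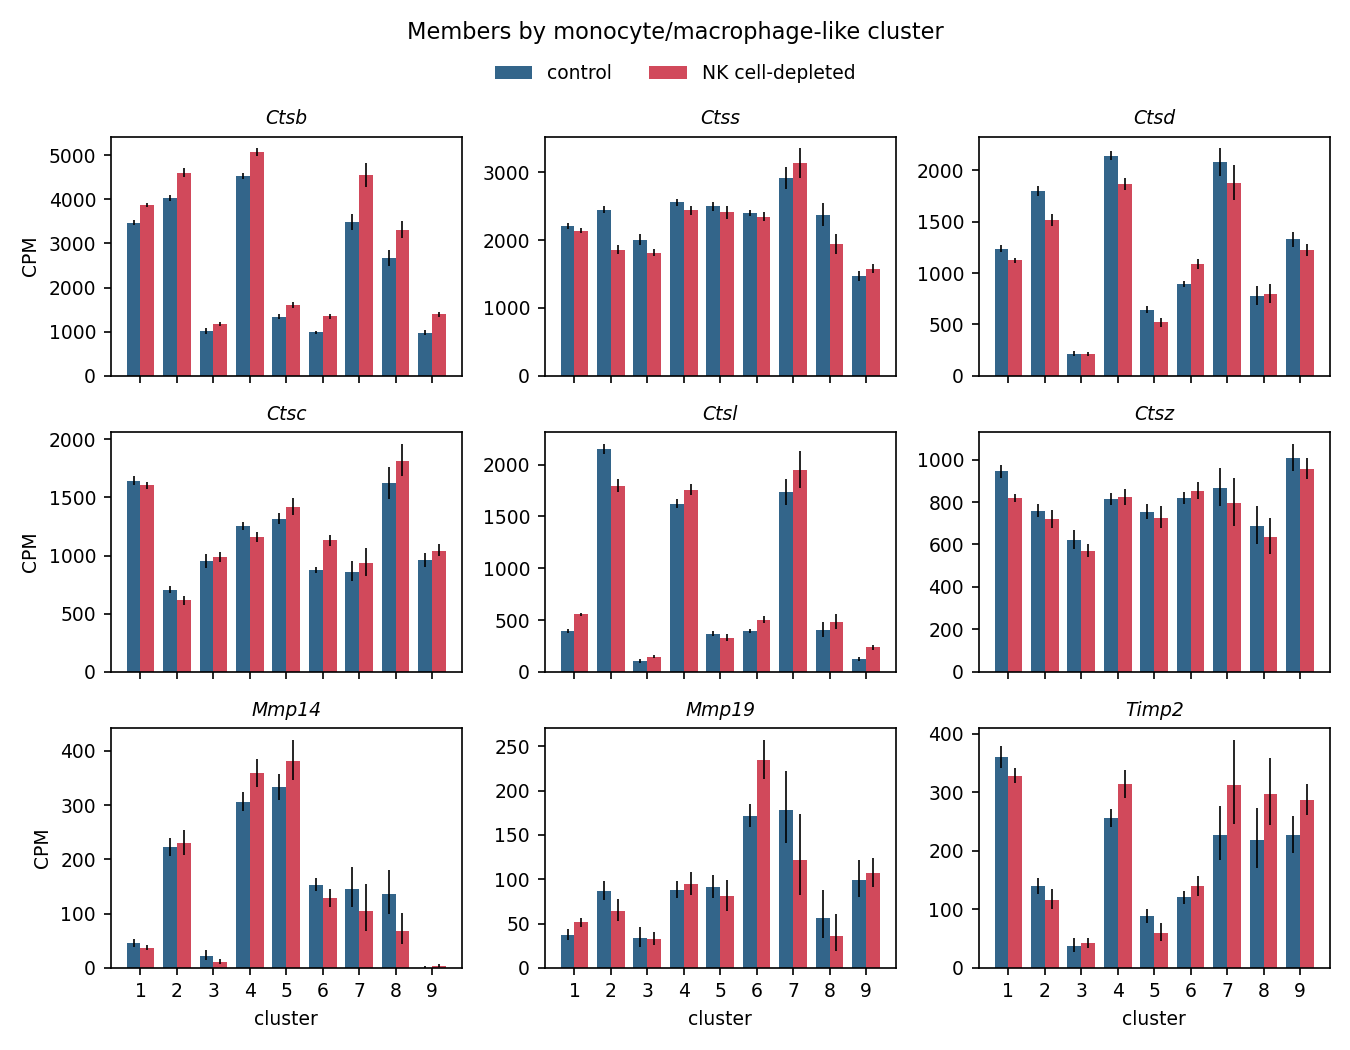
CPM of 9 members in each of the 9 monocyte/macrophage-like clusters, with bars for the summed cells of the control and the NK cell-depleted library and lines for 95% counting intervals; every axis starts at 0 and has its own scale. Ctsl stands out in clusters 2, 4 and 7 in both libraries, Mmp14 in clusters 4 and 5 and Mmp19 in clusters 6 and 7, while Ctss varies less.

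The question of the design was what the leukocytes of Ptgs-/- tumors express when NK cells are missing. Mmp12 differed between the libraries, in opposite directions in different clusters. In cluster 2, Mmp12 stood at 1420 CPM (1379 to 1462) in control and at 3856 CPM (3763 to 3952) in NK cell-depleted cells, a control level of 0.368 times the depleted one (0.354 to 0.383). Of 7389 genes with at least 50 UMIs in this cluster, 7 had a smaller ratio. In cluster 4 the levels were 412.5 and 1160 CPM, a ratio of 0.356 (0.334 to 0.379), and 7 of 8053 genes had a smaller one. Cluster 6 held 1592 and 2573 CPM (ratio 0.619, 0.596 to 0.642; 296 of 7974 genes had a smaller one) and cluster 7 held 1838 and 2811 CPM (0.654, 0.590 to 0.725; 142 of 1953). Cluster 5 went the other way, with 448 CPM in control and 234 CPM in NK cell-depleted cells (ratio 1.92, 1.67 to 2.21), and 112 of 6492 genes had a larger ratio. The counting intervals of the libraries did not overlap in any of these 5 clusters.

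Mmp13 followed its neighbour on chromosome 9 in part. Its control and NK cell-depleted levels were 407 and 792 CPM in cluster 2 (ratio 0.514, 0.476 to 0.556), 118 and 279 CPM in cluster 4 (0.422, 0.373 to 0.478) and 42.1 and 70.7 CPM in cluster 6 (0.595, 0.472 to 0.752). In cluster 5 Mmp13 was higher in control, at 64.6 and 25.0 CPM (2.58, 1.70 to 4.05), from 141 and 27 UMIs. In cluster 7 the levels were 176 and 186 CPM with overlapping intervals. Thus in cells of clusters 2 and 4 both metalloproteases were higher without NK cells, and in cluster 5 both were lower. Both were higher in cluster 6 too, but 5 cells held 60.6% and 64.2% of its Mmp13 UMIs. The same limit holds for cluster 5, where 5 cells held 48.2% of the Mmp13 UMIs in control and 74.1% after depletion. In the cluster with Slc7a2 and Dcstamp the Mmp13 ratio was 0.676 with a stricter cell filter and 0.674 without upper limits, under 1.5-fold. It was 0.489 with the members kept in the clustering, 0.631 without Scrublet-called cells and 0.619 after thinning.

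In clusters 2, 4 and 6 more NK cell-depleted cells carried Mmp12, and more carried much of it, while in cluster 5 both were lower. Thinned to 2000 UMIs, 43.9% of control and 55.5% of NK cell-depleted cells of cluster 2 held a Mmp12 UMI, 18.0% and 31.1% in cluster 4, 55.3% and 69.5% in cluster 6, and 20.1% and 12.7% in cluster 5. Cells with at least 10 Mmp12 UMIs made up 18.6% and 36.1% of cluster 2, 10.02% and 19.8% of cluster 4, 37.9% and 58.0% of cluster 6, and 6.79% and 4.82% of cluster 5. The 36 control and 33 NK cell-depleted macrophages with the most Mmp12, 1% of the class, held 26.0% and 30.9% of its UMIs, against 35.7% and 46.3% for Mmp13. Median depths of the clusters were close (3975 and 4084 UMIs in cluster 2, 7188 and 7805 in cluster 4, 4704 and 4612 in cluster 5, 8824 and 9355 in cluster 6), while the median mitochondrial share was lower in control in each (0.732% and 1.11% in cluster 2, 3.78% and 4.39% in cluster 5).

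Other gene lists moved in these clusters too. Interferon-response genes, a list of 11, summed to 598.5 and 203 CPM in cluster 2, to 395 and 144 CPM in cluster 5 and to 252 and 144 CPM in cluster 6, but to 401 and 443 CPM in cluster 4. NK markers summed to 53.0 and 0.599 CPM in cluster 2 and to 67.3 and 0.927 CPM in cluster 5. In cluster 5 the genes that mark this state (7 genes, with Hes1, Havcr2 and Thbs1) summed to 2734 and 5058 CPM, while both lists that were high in cluster 6, with Cdh1, Mgl2 and Ccl17 (9 genes) and with Slc7a2 and Dcstamp (8 genes), summed to 18250 and 9986 CPM and to 272 and 165 CPM. The list with Pf4 and Stab1 (8 genes), highest in cluster 4, summed to 9857 and 5045 CPM in cluster 2 and to 15770 and 10890 CPM in cluster 4. Their part in the Mmp12 and Mmp13 values was not tested. The direction of Mmp12 was lower in control in clusters 2, 4 and 6 and higher in cluster 5 with the 5 cells with most Mmp12 of each library left out, with log2 ratios over the clusters from -1.33 to 1.36 in place of -1.49 to 0.94.

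**Figure D3:**
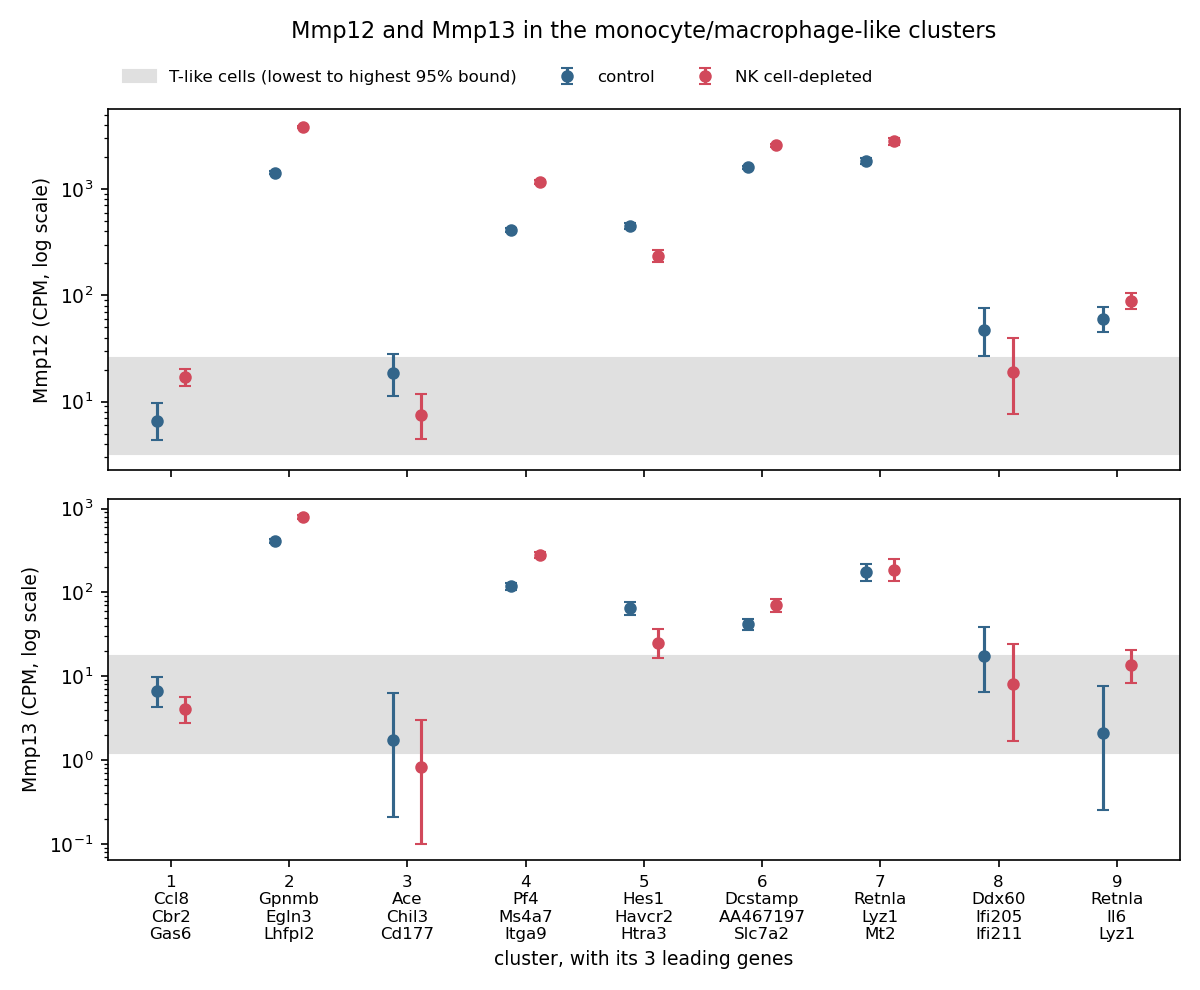
Mmp12 (top) and Mmp13 (bottom) in the 9 monocyte/macrophage-like clusters, as CPM of the summed UMIs on a log axis, with points for each library and 95% counting intervals; the grey band spans the intervals of T-like cells. Points of the NK cell-depleted library lie above control in clusters 2, 4 and 6 for both genes and below it in cluster 5, and clusters 1 and 3 lie at the T-like level.

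Over all monocyte/macrophage-like cells, these opposite shifts did not show. Mmp12 differed by a log2 ratio of -0.13 (control over NK cell-depleted) and Mmp13 by -0.083. Of 20 members with at least 50 UMIs in the class, 4 were at least 1.5-fold higher in control, where 6.06% of 10776 genes were, and 0 were lower, where 2.88% of genes were. The 4 were Mmp14 (177 and 114 CPM, ratio 1.55, 1.47 to 1.64), Ctsk (13.7 and 7.67 CPM, 1.79, 1.46 to 2.20), Timp1 (11.9 and 6.88 CPM, 1.73, 1.39 to 2.15) and Mmp27 (72 and 24 UMIs, 2.85, 1.77 to 4.73). Without the cells that carried markers of another class, which left 997 and 763 cells, Mmp14 and Timp1 no longer passed 1.5-fold, with log2 ratios of 0.35 and 0.57. The median log2 ratio was 0.068 over 11 cathepsins, 0.23 over 9 Mmp and Timp genes and -0.019 over all genes. The 6 most abundant members stayed within 1.5-fold, from -0.19 for Ctsb to 0.33 for Ctsl on the log2 scale.

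The makeup of the class entered these pooled ratios. Most control macrophages lay in clusters 2, 1, 4, 5 and 6, and most NK cell-depleted ones in clusters 1 and 3. When each cluster was given a weight that was the same in both libraries, the log2 ratio of Mmp14 went from 0.63 to -0.040, of Ctsk from 0.84 to 0.095, of Timp1 from 0.78 to 0.29 and of Ctsl from 0.33 to -0.10, while Mmp27 kept 0.88. Mmp12 went to -1.01 and Mmp13 to -0.89, past 1.5-fold lower in control. Within clusters, Mmp14 went both ways. In clusters 2, 4 and 5 it stood at 223, 306 and 333 CPM in control and at 231, 359 and 382 CPM after depletion. That is not the direction of its pooled ratio. In clusters 1, 3, 6, 7 and 8 Mmp14 was higher in control, past 1.5-fold only in clusters 3 and 8.

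**Figure D4:**
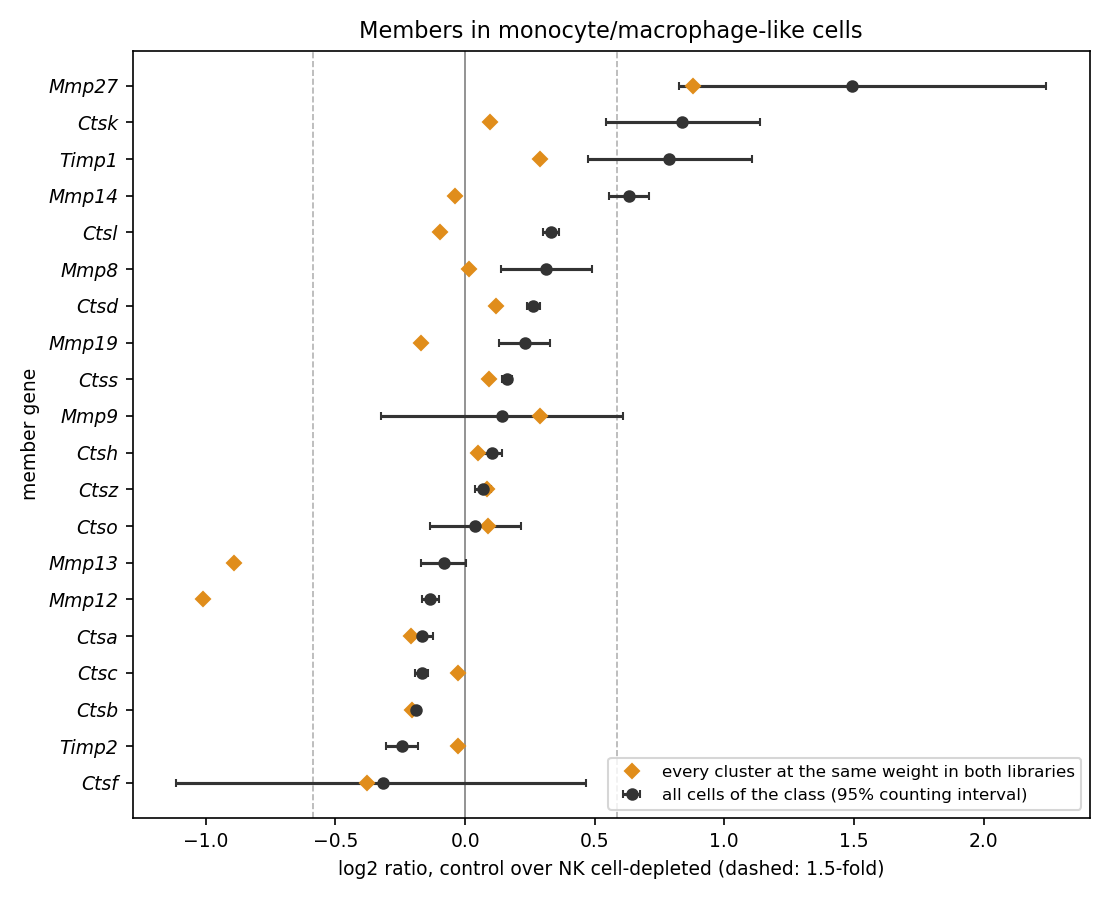
Log2 ratio of control over NK cell-depleted levels for the 20 members with at least 50 UMIs in monocyte/macrophage-like cells, over all cells of the class (black points, lines for 95% counting intervals) and when clusters were weighted alike (orange diamonds); dashed lines mark 1.5-fold. Mmp14, Ctsk and Timp1 lie right of the line only in the pooled values, and Mmp12 and Mmp13 lie left of it only when clusters were weighted alike.

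Read cluster by cluster, few other members passed 1.5-fold. In cluster 2, Mmp12 and Mmp13 were the 2 of 16 counted members that were lower in control, where 5.10% of all genes were, and in clusters 4 (2 of 17, against 5.09% of genes) and 6 (2 of 15, against 6.26%) they were again the only ones. In cluster 5 they were the 2 of 15 members that were higher (6.27% of genes), and in cluster 7 Mmp12 was the 1 of 13 that was lower (8.40%). Mmp14 was higher in control in cluster 3, at 21.9 and 11.2 CPM (1 of 13 members, 3.69% of genes), and in the shallow cluster 8 (Ddx60, Ifi205), at 136 and 68.3 CPM from 46 and 25 UMIs (1 of 10, 6.19%). Mmp8 was lower in control in cluster 3, at 43.8 and 75.2 CPM (ratio 0.583, 0.417 to 0.801; 1 of 13 members, 5.75% of genes), where markers of neutrophils summed to 1012 and 736 CPM. In cluster 1, Mmp12 (6.61 and 16.9 CPM) and Mmp8 (2.29 and 7.54 CPM) were lower (2 of 15, 3.87%) and Mmp13 (6.61 and 4.03 CPM) was higher (1 of 15, 4.22%). The summed levels of Mmp12 and Mmp13 were here near those of T-like cells, but single cells held many UMIs. The most in a cell was 2 in control and 27 after depletion for Mmp12, and 13 and 8 for Mmp13. Whether these UMIs are background was not tested. The counted cathepsins stayed within 1.5-fold in all 8 compared clusters, with medians between -0.15 (cluster 6) and 0.22 (cluster 2) on the log2 scale.

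Among neutrophil-like cells, 412 from control and 492 from NK cell-depleted tumors, Mmp8 was lower in control at 132 and 252.5 CPM (ratio 0.521, 0.384 to 0.70), the 1 of 11 counted members that was, where 6.45% of genes were. Ctsh was higher in control at 74.1 and 41.6 CPM from 36 and 27 UMIs (1 of 11, 8.14% of genes). Mmp9 differed by less, with a ratio of 0.893 (0.807 to 0.989). In cluster 10, the largest neutrophil-like cluster, Mmp8 stood at 208 and 351 CPM (ratio 0.593, 0.432 to 0.804). Mmp8 was thus lower in control in neutrophil-like cells and in cluster 3. It was also lower in cluster 1, but few cells held a UMI there (7 of 593 in control and 42 of 1090 after depletion). In cluster 2 it stood at 94.6 and 70.1 CPM, a difference under 1.5-fold.

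In T-like cells 4 of 7 counted members, Ctsd (242 and 123 CPM), Ctsw (78.5 and 45.5 CPM), Ctsa (114.5 and 73.2 CPM) and Ctsz (58.9 and 37.6 CPM), were higher in control, where 10.3% of genes were. In these cells all 9 mast cell markers summed to 1339 CPM in control and to 0 in the NK cell-depleted library, and NK markers to 569 and 275 CPM. Without the cells that carried at least 3 UMIs of those markers, 229 and 194 cells were left, Ctsa (ratio 1.58, 0.999 to 2.52) and Ctsd (1.56, 1.11 to 2.22) remained past 1.5-fold, and Ctsw and Ctsz had too few UMIs to count. The class was made of cluster 11 (Cxcr6, Gata3, Ctla4), with 233 and 106 cells, and cluster 17 (Lef1, Tcf7, Satb1), with 54 and 108 cells. In cluster 11 alone Ctsd (253 and 145 CPM), Ctss (157 and 95.2 CPM) and Ctsw (45 and 5 UMIs) were past 1.5-fold. The other counted members, Ctsa (120 and 83.7 CPM) and Ctsb (143.5 and 133.2 CPM), were not. In cluster 17 alone no member had enough UMIs to count. No share over all genes is given for these subsets of the T-like class. Cluster 14, which was left unnamed (Siglech, Cdh1, Cd209a), held Ctsd at 128 and 71.3 CPM and Mmp12 at 258 and 156 CPM, 2 of 10 members higher in control against 7.10% of genes.

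In melanoma-like cells 5 of 6 counted members were lower in control: Timp2 (408 and 733 CPM), Ctsl (218 and 393 CPM), Ctsd (81.6 and 180 CPM), Ctsb (129 and 216 CPM) and Mmp14 (88.4 and 147 CPM). Different clusters held the class in the 2 libraries: cluster 19 (Crabp1, Phgdh, Asns; median 1273 UMIs) had 47 and 48 cells and 69.0% and 27.7% of the UMIs, and cluster 24 (Cyr61, Prkg2, Cavin2; median 10085 UMIs) had 5 and 22 cells and 31.0% and 72.3% of them. In this class 29.4% of all genes were lower in control by this measure, and the median over all genes was -0.23 on the log2 scale. The limits of 15000 UMIs and 4000 genes per cell had removed most melanoma-like cells: without them there were 121 and 265, of which 117 and 244 lay above a limit. In those cells Timp2 stood at 684 and 834 CPM (ratio 0.819, 0.784 to 0.856), Ctsl at 421 and 461 CPM, Mmp14 at 127 and 161 CPM and Timp1 at 171 and 170.3 CPM, and these 4 stayed within 1.5-fold. Mmp12 (17.2 and 2.63 CPM, from 74 and 21 UMIs; ratio 6.53, 3.98 to 11.2) was higher and Mmp23 (13 and 38 UMIs; ratio 0.633, 0.31 to 1.22) lower in control past 1.5-fold. A Mmp12 UMI was found in like shares of these cells, 8.26% in control and 7.93% after depletion. Macrophages held 98.3% of the Mmp12 UMIs without the limits. No share over all genes is given for these melanoma-like cells. These were mostly not the cells of the comparison above: 4 and 21 cells were in both classes, and the shallow cells of cluster 19 had no name without the limits. The cells came from both Ptgs-/- tumors and the added parental line, which these counts do not tell apart.

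The 16 members with 1 to 99 UMIs were thin but not without place. Mmp27, which lies next to Mmp8, had 72 and 25 UMIs in 66 and 24 cells, 72 and 24 of them in macrophages, at 10.7 and 8.39 CPM in cluster 2 and 8.30 and 2.81 CPM in cluster 4. It was not seen in control neutrophil-like cells and had 1.54 CPM in depleted ones, so that its place differed from that of Mmp8. Mmp10 (stromelysin 2) had 9 UMIs in 6 control cells and 35 UMIs in 13 NK cell-depleted cells. Mmp7 (matrilysin) had 5 and 17 UMIs, of which 5 and 16 lay in migratory DC-like cells, from 1 and 4 cells in all. Mmp23 had 15 and 18 UMIs with 10 and 11 in the same class, and Mmp25, a membrane-anchored MMP of leukocytes, had 36.3 and 54.0 CPM there. Mmp11 (6 and 11 UMIs) and Mmp16 (1 and 5 UMIs) lay mainly in melanoma-like cells; without the upper limits Mmp11 stood at 31.5 and 33.8 CPM in them. The gelatinase Mmp2 and the stromelysin Mmp3, typical of fibroblasts, had 9 and 5 UMIs over both libraries. The remaining members, Ctse, Ctsf, Ctsg, Mmp15, Mmp17, Mmp28 and Timp3, had between 5 and 80 UMIs over both libraries.

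Genes that act with the members were followed in the class as a whole, where 62 were counted and 8 passed 1.5-fold, beside 8.94% of all genes in either direction. Of 30 other lysosome genes, all 30 had at least 50 UMIs in monocyte/macrophage-like cells and 0 passed 1.5-fold, with a median of -0.093 on the log2 scale. Of 9 genes of the plasminogen system, the protease cascade that activates several MMPs, 7 were counted, 0 were higher in control and Serpinb2, an inhibitor of plasminogen activators, was lower (4.14 and 7.46 CPM). Of 14 ADAM and ADAMTS proteases 6 were counted and Adam19 was lower (5.19 and 10.1 CPM). Of 10 other regulators of MMPs 4 were counted and 0 passed. Of 14 cystatins and other cathepsin inhibitors 6 were counted: Serpinb6b (3.24 and 0.368 CPM), Serpina3g (5.24 and 1.05 CPM) and Cst7 (3.04 and 1.63 CPM) were higher and Serpinb1a (5.69 and 11.1 CPM) was lower. NK markers summed to 63.8 and 1.05 CPM in the same cells, and their part in these values was not tested. Cst3, the main secreted cystatin, stood at 1588 and 1294 CPM. Of 15 matrix substrates 9 were counted, and Col3a1 (2.25 and 1.10 CPM) and Col4a1 (2.34 and 1.26 CPM) were higher.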

How the data were processed

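Single-cell RNA-seq of sorted CD45+ tumor leukocytes was available as 1 library per group. The authors deposited raw UMI counts per gene and cell, made with bcl2fastq and Cell Ranger (3.0.2 per the file headers; the study's methods name a different release) on mm10, per the submitters' processing notes. Filters kept cells of 500 to 15000 UMIs and 200 to 4000 genes whose mitochondrial share did not exceed 10%, which leaves out most melanoma cells. Counts were normalised, 2000 variable genes without the members were taken to 15 principal components and clustered by the Leiden method (scanpy 1.11.5, leidenalg 0.10.2, resolution 1, 20 neighbours), and the cells outside the monocyte/macrophage-like clusters were clustered again. Clusters were named from marker lists. A class name needed a marker among the 50 leading genes and at least 3 markers above their level in all other cells. A macrophage state needed at least 3 markers among the 50 leading genes. Scrublet called few doublets, and these cells were kept in the main values.

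UMIs were summed per class or cluster and library and given as CPM with exact Poisson intervals; shares of cells have Clopper-Pearson intervals, and ratios exact conditional binomial intervals. Log2 ratios had 0.5 UMI added to each sum. A gene was counted from 50 UMIs upward, both libraries together, in clusters of at least 100 cells and classes of at least 50 cells per library. With 1 library per group no test between groups was possible and no p-value is given. Members with at least 100 UMIs were described, and those past 1.5-fold and the 6 most abundant were named. The calculation was tested on simulated data. Alternatives were other cell filters, clusterings, thresholds and weights. The members and lists were chosen with earlier results of these data known; naming thresholds, the second clustering step, the Mmp12 and Mmp13 comparison across clusterings and the splits of T-, melanoma- and neutrophil-like cells were set after seeing the data. Promoter sequences are from RefSeq (GRCm38.p6). Some items computed here are not reported.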

Additional observations from a re-analysis of the deposited data

Results flagged for a closer look

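Mmp12 and Mmp13 drew attention because their differences had opposite directions in clusters of the same class. The log2 ratio of control over NK cell-depleted levels was 0.94 for Mmp12 in cluster 5 and -1.49 in cluster 4, and for Mmp13 it was 1.35 in cluster 5 and -1.24 in cluster 4. The difference between the clusters was not tested, since there was 1 library per group.

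Ctsd had opposite directions in T-like cells (0.97 on the log2 scale) and melanoma-like cells (-1.10), also not tested. In T-like cells the value was 0.64 without the cells that carried NK or mast cell markers, and in melanoma-like cells it was 0.18 in a clustering made without upper limits, where the cells named melanoma-like were mostly other cells (4 control and 21 NK cell-depleted cells were in both classes).

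The cells above the upper limits were outside the comparisons. The melanoma-like cells found without those limits, 121 control and 265 NK cell-depleted cells of which 117 and 244 lay above a limit, held Timp2 at 684 and 834 CPM and Mmp11 at 31.5 and 33.8 CPM.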

How the results depend on the processing

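The limits of these values are the single library per group, the pooled tumors and the depth of rare members. In monocyte/macrophage-like cells the count of members past 1.5-fold was 4 and became 7 at a minimum of 20 UMIs per gene, with Ctsw higher and Ctse and Mmp10 lower in control, and 1 at 2-fold (Mmp27). Without cells with markers of another class, Ctsk and Mmp19 were higher and Mmp12 (-0.59, log2) lower, and Mmp14 (0.35) and Timp1 (0.57) no longer passed. The cathepsin median of 0.068 (log2) became 0.17 without cells with markers of another class, which left 997 and 763 cells, and 0.032 with the T-like level subtracted. The Mmp and Timp median of 0.23 became 0.34 without Scrublet-called cells, 0.35 without cells with markers of another class and -0.028 when clusters were weighted alike, where Mmp14 turned from 0.63 to -0.040. The median share of UMIs in macrophages, 94.1%, became 94.98% at resolution 2 and 88.1% without upper limits. Without those limits the share fell most for Timp1, to 15.2%, Timp2, to 48.4%, and Mmp14, to 74.55%. Over 157 pairs of a member and a class or cluster, 28 passed 1.5-fold in either direction and 7 passed 2-fold. No share of all genes over the same classes and clusters is given, so these counts are not read as a result about the members. In the comparisons where a member passed 1.5-fold, the share of all genes past it in the same direction varied widely. It ran from 3.69% (cluster 3, higher in control) to 29.4% (melanoma-like cells, lower in control, with 5 of the 28). In clusters of at least 100 cells per library and 20 CPM, Mmp12 was lower in control in 3 or 4 and higher in 1 under each of 7 alternatives; Mmp13 was lower in 2 or 3, and in cluster 5 it could not be compared under 4 of them, since it fell below 20 CPM in NK cell-depleted cells (ratios 3.82 with the members kept in the clustering, 5.03 with a stricter cell filter, 5.11 without its 5 highest cells and 2.98 after thinning). The other values that moved numbered 64 and those that did not 161. The causes were not tested. No paired analysis was possible because each group had 1 library.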

Other observations

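The DC-like classes and B-like cells held cathepsin patterns of their own. Type 1 conventional DC-like cells held Ctss at 492.5 and 489 CPM, Ctsz at 347.5 and 411.5 CPM and Ctsc at 290 and 339 CPM, and Ctsb at 218 and 181 CPM, far below the 2759 and 3147 CPM of macrophages. B-like cells, 49 and 37 in number, held Ctso at 106 and 101 CPM, above the 28.2 and 27.5 CPM of macrophages, from sums of 75693 and 69258 UMIs. Cluster 23, left unnamed (Alox15, Ccr3, Siglecf), had 9 control and 72 NK cell-depleted cells and held Mmp9 at 227 CPM in the latter.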
